A study of Mus musculus with 6 samples.

Results

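The genes described here encode the route by which skeletal muscle takes up glucose, splits it to pyruvate and lactate, and stores it as glycogen, together with the glycerol phosphate shuttle. There are 35 such genes, chosen by name for their function, among 22036 gene rows in the table, and all 35 passed the filter on low counts that left 9229 genes for the test. Aldoa occupies 2 rows (36 rows in all), of which ENSMUSG00000114515 held 1 read over the 6 libraries, so that ENSMUSG00000030695 is used for Aldoa. The counts come from skeletal muscle of mice labelled KO, for a knockout of the nuclear protein PRR14, injected 1 month earlier with AAV, an adeno-associated virus that carries genes into tissue. In 3 libraries the virus carried MEF2C-GFP, the muscle transcription factor MEF2C together with green fluorescent protein, and in 3 it carried GFP. Every library carries the knockout label, and wild-type or uninjected muscle was not analysed here. The sources used here do not give the age or sex of the mice, the muscle taken, the promoter in the virus or the tissue reach of the knockout. Nor do the labels say that replicates are separate animals, so that p-values measure the spread between these samples, which may be technical.

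Glucose enters the fibre through a membrane transporter, is phosphorylated by hexokinase, and is carried down glycolysis to pyruvate, which lactate dehydrogenase converts to lactate. Glycogen phosphorylase and its activating kinase release glucose phosphate from the glycogen store, and glycogen synthase and the branching enzyme rebuild it. The glycerol phosphate shuttle moves electrons from cytosolic NADH into the respiratory chain. Fast glycolytic fibres are rich in the enzymes of glycolysis after hexokinase and export lactate, while slow oxidative fibres favour lactate uptake. MEF2 factors bind an A/T-rich site found upstream of several muscle genes, and this is why the promoters were read first.

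In RefSeq windows of 250 bases before the start of transcription (GRCm38.p6), 33 of the 35 genes had at least 1 window. The MEF2 consensus, searched on both strands, was present for 3 of them, Pgam2, Ppp1r3a and Pfkfb1 (9.09%, against 3.42% of all 27025 genes with a window). The E-box CAGCTG, the kind bound by muscle regulatory factors such as MYOD1, was present for 11 genes (33.3%, against 14.7%). CACGTG was present for 5 (15.2%, against 6.86%). ACGTG, the core of hypoxia-response elements, which every CACGTG also holds, was present for 17 (51.5%, against 18.5%). A gene counted if any of its windows matched, and the 33 genes had 48 windows, where all 27025 had 32851. Of the 48 windows, 3 held the MEF2 consensus (2.92% of all windows did) and 11 CAGCTG (13.0%). CACGTG was in 5 (6.02%) and ACGTG in 19 (16.6%). The comparison set was all genes with a window, whether or not they were tested here. These are letter matches in a short window, given without a test. The windows of 3 genes are shown because they hold the MEF2 match in an enzyme and in a glycogen regulator (Pgam2 and Ppp1r3a), and both kinds of E-box in the gene with the lowest fold change (Fbp2). Capitals mark the MEF2 match, CAGCTG and CACGTG, and each sequence runs along the gene's own strand, which is the minus strand for all 3. The windows are chr11:5803797-5804046 for Pgam2, chr6:14755275-14755524 for Ppp1r3a and chr13:62858401-62858650 for Fbp2.
Pgam2: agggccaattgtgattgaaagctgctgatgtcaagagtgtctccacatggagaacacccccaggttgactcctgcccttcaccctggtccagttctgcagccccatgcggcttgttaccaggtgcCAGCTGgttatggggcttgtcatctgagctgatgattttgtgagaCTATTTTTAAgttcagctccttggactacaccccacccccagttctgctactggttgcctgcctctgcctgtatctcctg
Ppp1r3a: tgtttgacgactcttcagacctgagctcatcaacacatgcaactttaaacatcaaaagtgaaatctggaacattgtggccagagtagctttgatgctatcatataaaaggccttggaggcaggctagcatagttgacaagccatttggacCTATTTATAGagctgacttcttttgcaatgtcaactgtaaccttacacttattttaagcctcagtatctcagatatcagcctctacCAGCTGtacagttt
Fbp2: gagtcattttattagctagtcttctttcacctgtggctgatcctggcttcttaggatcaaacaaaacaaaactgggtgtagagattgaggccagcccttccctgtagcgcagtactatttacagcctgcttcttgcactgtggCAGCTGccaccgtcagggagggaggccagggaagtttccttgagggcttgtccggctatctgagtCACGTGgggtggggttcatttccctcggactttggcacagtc
Counting back from the base before the start as 1, in Pgam2 the MEF2 match ends 71 bases before the start and CAGCTG 120 bases before it. In Ppp1r3a the MEF2 match ends 91 bases before the start and CAGCTG 9 bases before it. In Fbp2 the matches end 102 bases (CAGCTG) and 37 bases (CACGTG) before the start. The MEF2 match of Pfkfb1 lies in 1 of its 4 windows, with its end 104 bases before that start.

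Libraries held between 3370833 and 3900617 counts in genes, and between 13001 and 13637 genes with a read. A count of 0 allows up to 3 counts, or 0.769 to 0.890 CPM (counts scaled to a common library total), and such limits cover counting error only, since the protocol describes no molecular identifiers. The defining muscle genes Ckm, Acta1, Des, Myh4 and Tnnt3 were abundant in all 6 libraries, with summed levels of 99269 to 112315 normalised CPM in the MEF2C group and 119863 to 143486 in the GFP group. Values of a group are given in the order of replicates 1, 2 and 3. Normalised CPM are CPM on library totals scaled by TMM, a method that sets most genes to no change. Mef2c itself stood at 234, 196 and 371 normalised CPM in the MEF2C group, against 223, 261 and 236 in the GFP group, so that MEF2C replicates 1 and 2 were within or below the GFP range. Reads of Prr14, the targeted gene, were present in every library, with 30, 23 and 20 counts in the MEF2C group, against 11, 12 and 15 in the GFP group. Its groups did not overlap, at 0.72 ± 0.32 for its log2 fold change (edgeR adjusted p = 0.856). The sources used here do not say which part of the gene was deleted, so these counts do not check the knockout label. The groups are named as labelled.

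The 35 genes took 7.08%, 6.37% and 6.97% of the counts in the MEF2C group, against 6.07%, 7.53% and 6.78% in the GFP group. The groups overlapped, and GFP replicates 1 and 2 were the lowest and the highest library. Aldoa (fructose-bisphosphate aldolase) and Gapdh (glyceraldehyde phosphate dehydrogenase) together made up 2.89% to 3.91% of each library's counts. GFP replicate 2 had the highest normalised level for 17 of the 35 genes (48.6%), among them Aldoa, Tpi1, Gapdh, Pgk1, Pgam2, Eno3, Pkm, Ldha and Pygm, while it was the highest library for 16.1% of all genes tested. MEF2C replicate 2 had the lowest level for 14 (40.0%), against 14.1% of all genes tested.

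**Figure D1:**
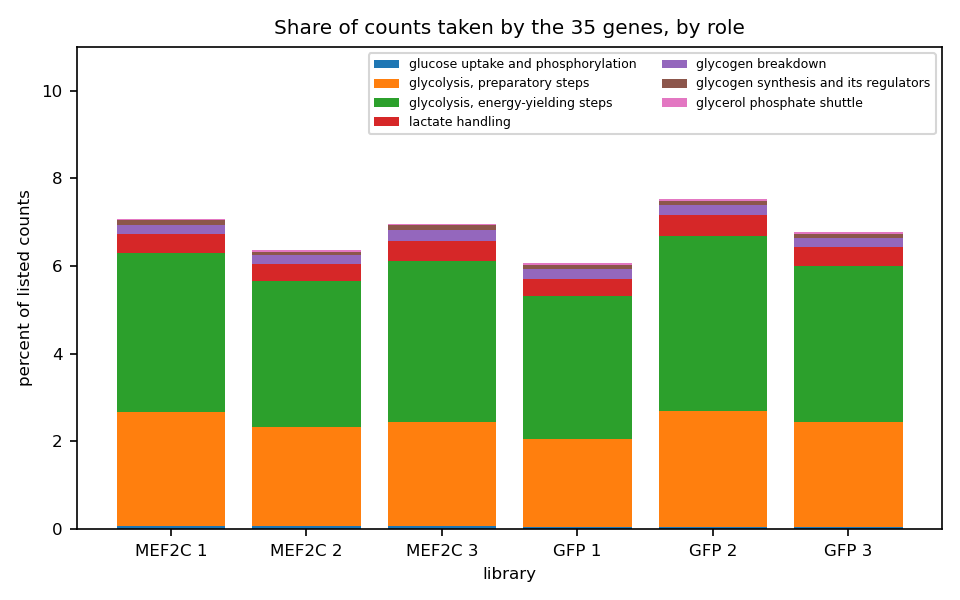
Share of each library's counts in genes (y axis, percent) taken by the 35 genes, stacked by role, for the 6 libraries on the x axis. The totals lie between 6.07% (GFP replicate 1) and 7.53% (GFP replicate 2), and the MEF2C libraries fall inside that range.

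None of the 35 genes passed the test over all genes. By edgeR's quasi-likelihood test 0 of 35 had an adjusted p under 0.05, where 0.0758% of all genes tested did (0.0325% higher and 0.0433% lower). An unadjusted p under 0.05 was found for 7 of 35, where 5.71% of all genes had one. The 7 were Fbp2, Gpd2, Gpd1, Pkm, Tpi1, Hk2 and Slc16a1, of which 5 were lower (2.35% of all genes) and 2 higher (3.36%) in the MEF2C libraries. The DESeq2 Wald test called 1 of the 35, Fbp2, where it called 0.238% of all genes, and limma-voom called 0. The groups did not overlap for 9 of the 35 genes, where 11.1% of all genes tested did not. Of the 9, 7 were lower in the MEF2C libraries (5.33% of all genes) and 2 were higher (5.75%). Overlap was read on normalised CPM, so it depends on the scaling. The TMM factors were 1.01, 1.05 and 1.08 in the MEF2C group, against 1.00, 0.90 and 0.97 in the GFP group, which lowers the MEF2C values relative to library totals alone. With library totals alone the groups of Gys1 and Phkg1 overlapped. Some markers of skeletal muscle and of other cell types also separated the groups. All markers of endothelium, macrophages, adipocytes and neutrophils had overlapping groups. So did the Schwann cell markers apart from Prx, which was lower in every MEF2C library on normalised CPM but overlapped with library totals alone. Of the 5 skeletal muscle markers, Ckm, Acta1 and Tnnt3 were lower in every MEF2C library on normalised CPM, and Des and Myh4 had overlapping groups. With library totals alone the groups of Ckm and Tnnt3 overlapped too, with log2 fold changes of -0.10 and -0.05. Of the 3 smooth muscle markers, Myh11 and Tagln were higher in every MEF2C library, with a summed level over the 3 of 456 to 578 normalised CPM against 326 to 454. Myh11 had 97.2, 107.6 and 103.1 normalised CPM in the MEF2C group, against 70.5, 60.6 and 47.7 in the GFP group (edgeR adjusted p = 0.126, DESeq2 adjusted p = 0.0149). Of the 5 red blood cell markers, Hba-a2, Hbb-bs, Hbb-bt and Alas2 were higher in every MEF2C library, with sums of 4393 to 8631 against 3080.5 to 4166. The part of these cells in the values of the 35 genes was not tested. The median log2 fold change of the 35 was -0.13, with 24 below 0, beside a median of 0.01 over all genes tested, of which 47.8% were below 0. This median depends on how the libraries are scaled: with library totals alone it was 0.01, with 16 below 0, while over all genes it shifted from 0.01 to 0.14. Without GFP replicate 2 it was -0.03.

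**Figure D2:**
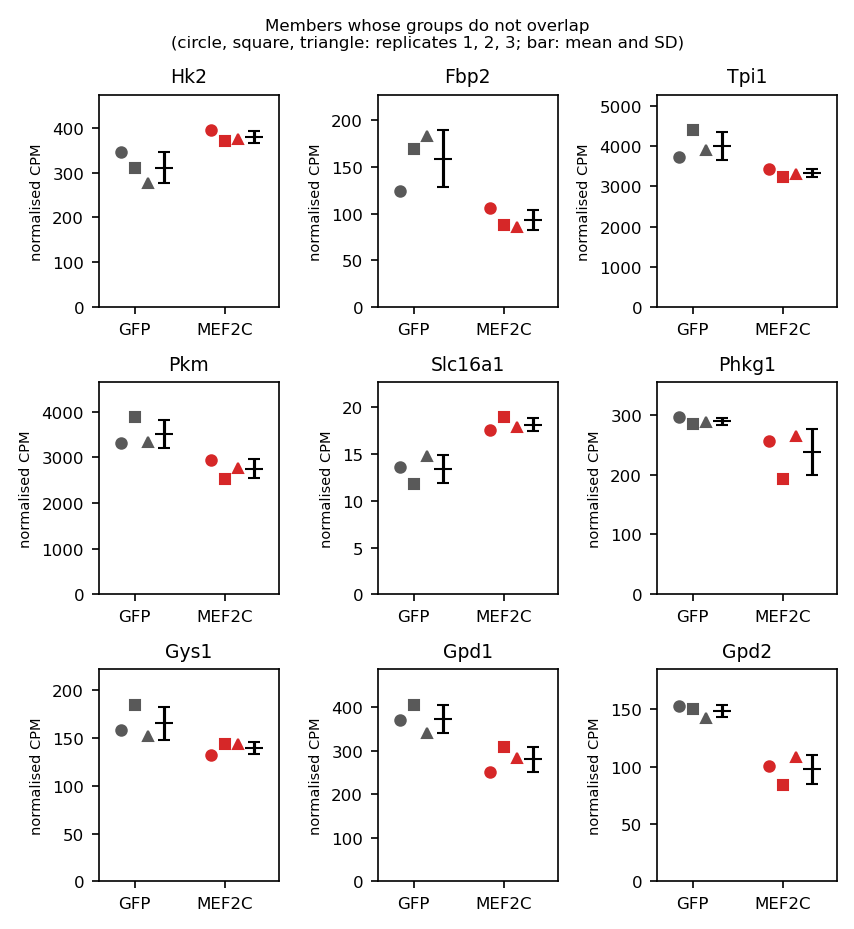
Normalised CPM (y axes, from 0) of the 9 genes whose groups do not overlap, with 1 symbol per replicate and the mean with SD beside each group. Hk2 and Slc16a1 lie higher in the MEF2C libraries, and Fbp2, Tpi1, Pkm, Phkg1, Gys1, Gpd1 and Gpd2 lie lower.

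Both enzymes of the glycerol phosphate shuttle stood lower in every MEF2C library than in any GFP library. Gpd2, the mitochondrial flavin-linked enzyme (GRCm38 chromosome 2, 57237635 to 57370719, plus strand), was at 101, 84.2 and 109 normalised CPM in the MEF2C group, against 153, 150.3 and 143 in the GFP group. The GFP values lie within a narrow band that no MEF2C library reaches. The log2 fold change was -0.60 ± 0.14 (SE, n = 3 per group), or 0.658 times, with an edgeR adjusted p of 0.250 (DESeq2 adjusted p = 0.0577). Gpd1, the cytosolic enzyme that makes glycerol phosphate (chromosome 15, 99717515 to 99725005, plus strand), was at 251, 309 and 283 in the MEF2C libraries and at 372, 406 and 342 in the GFP libraries. Its log2 fold change was -0.41 ± 0.13 (edgeR adjusted p = 0.662). Summed, the pair reached 351 to 393 normalised CPM against 484 to 556, and leaving out any library kept the Gpd2 change between -0.69 and -0.51 and the Gpd1 change between -0.49 and -0.34. The within-library log2 ratio of Gpd1 to Gpd2 averaged 1.52 ± 0.30 against 1.32 ± 0.10 (SD, n = 3 per group), and its groups overlapped (exact two-sided permutation p = 0.5).

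Of the 6 genes of the preparatory steps of glycolysis, Fbp2 and Tpi1 had groups that did not overlap, as had 11.1% of all genes tested. Fbp2 encodes muscle fructose-bisphosphatase, which runs the phosphofructokinase step backwards. Fbp2 (chromosome 13, 62836877 to 62858422, minus strand) was at 106, 87.7 and 86.2 normalised CPM in the MEF2C group, against 125, 169 and 183 in the GFP group. Every MEF2C library lay under every GFP library, although MEF2C replicate 1 and GFP replicate 1 were close. The log2 fold change of -0.77 ± 0.16 had an edgeR adjusted p of 0.160 and a DESeq2 adjusted p of 0.0153, so the call depends on the test. With no filter on low counts edgeR called both Fbp2 (adjusted p = 0.000862) and Gpd2 (adjusted p = 0.0285). Without GFP replicate 3 the Fbp2 change was -0.66 (edgeR adjusted p = 0.998), and without GFP replicate 1 it was -0.93 (adjusted p = 0.0526).

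Tpi1, triosephosphate isomerase, was at 3436, 3226 and 3312 in the MEF2C libraries and at 3719.6, 4392 and 3913 in the GFP libraries. The groups did not overlap, with its log2 fold change at -0.27 ± 0.11 (edgeR adjusted p = 0.841). The other 4 genes of these steps had overlapping groups and log2 fold changes between -0.06 and 0.15, where Gpi1 and Aldoa turned from below 0 to 0.10 and 0.07 with library totals alone. They were Gpi1 (glucose phosphate isomerase), Pfkm (muscle phosphofructokinase), Aldoa, and Pfkfb1, which makes and breaks down an activator of phosphofructokinase. Pfkm stood at 1408 ± 153 against 1391 ± 166 normalised CPM (SD, n = 3 per group). Aldoa ranged from 13831 in GFP replicate 1 to 21983 in GFP replicate 2, a span that holds the 3 MEF2C values.

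In the energy-yielding steps, Pkm, pyruvate kinase (chromosome 9, 59656368 to 59679375, plus strand), was at 2947, 2536 and 2774 normalised CPM in the MEF2C group, against 3324, 3874 and 3336 in the GFP group. No MEF2C library reached the GFP range. The log2 fold change was -0.35 ± 0.12 with an edgeR adjusted p of 0.736, and lay between -0.41 and -0.28 with any library left out. Eno3, the muscle enolase, had 7315, 7062 and 7242 against 7019, 9767 and 8204, where GFP replicate 1 lay below all MEF2C libraries. Pgam2, the muscle phosphoglycerate mutase whose promoter is shown above, had 6765, 6116 and 6902 against 6260.2, 8203 and 7222. Its groups overlapped, and its log2 fold change of -0.13 ± 0.12 (edgeR adjusted p = 0.993) became 0.00 with library totals alone. Gapdh and Pgk1 (phosphoglycerate kinase) were at -0.13 ± 0.14 and -0.05 ± 0.13, and turned to 0.0067 and 0.08 with library totals alone.

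The isoenzymes that most tissues share were scarce or uneven. Pgam1 had 27, 34 and 24 counts in the MEF2C group, against 20, 19 and 22 in the GFP group, which limits what this depth can show. Eno1, the widespread enolase, was at 147, 230.4 and 138 normalised CPM in the MEF2C libraries and at 151, 169 and 162 in the GFP libraries. MEF2C replicate 2 alone stood out, and without it the log2 fold change of 0.10 turned to -0.18. The same library had the highest sum of the 5 adipocyte markers (738 normalised CPM, against 458 to 533 in the other 5 libraries), with Adipoq at 91.4 against 24.0 to 47.2. Its part in the Eno1 value was not tested. Gapdh, Pgam1, Ldha, Aldoa, Pgk1, Tpi1 and Eno1 have near-identical processed copies in the mouse genome, and their counts are uncertain between copies. Eno1b, a retrocopy of Eno1 that the table lists separately, held 0 reads.

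**Figure D3:**
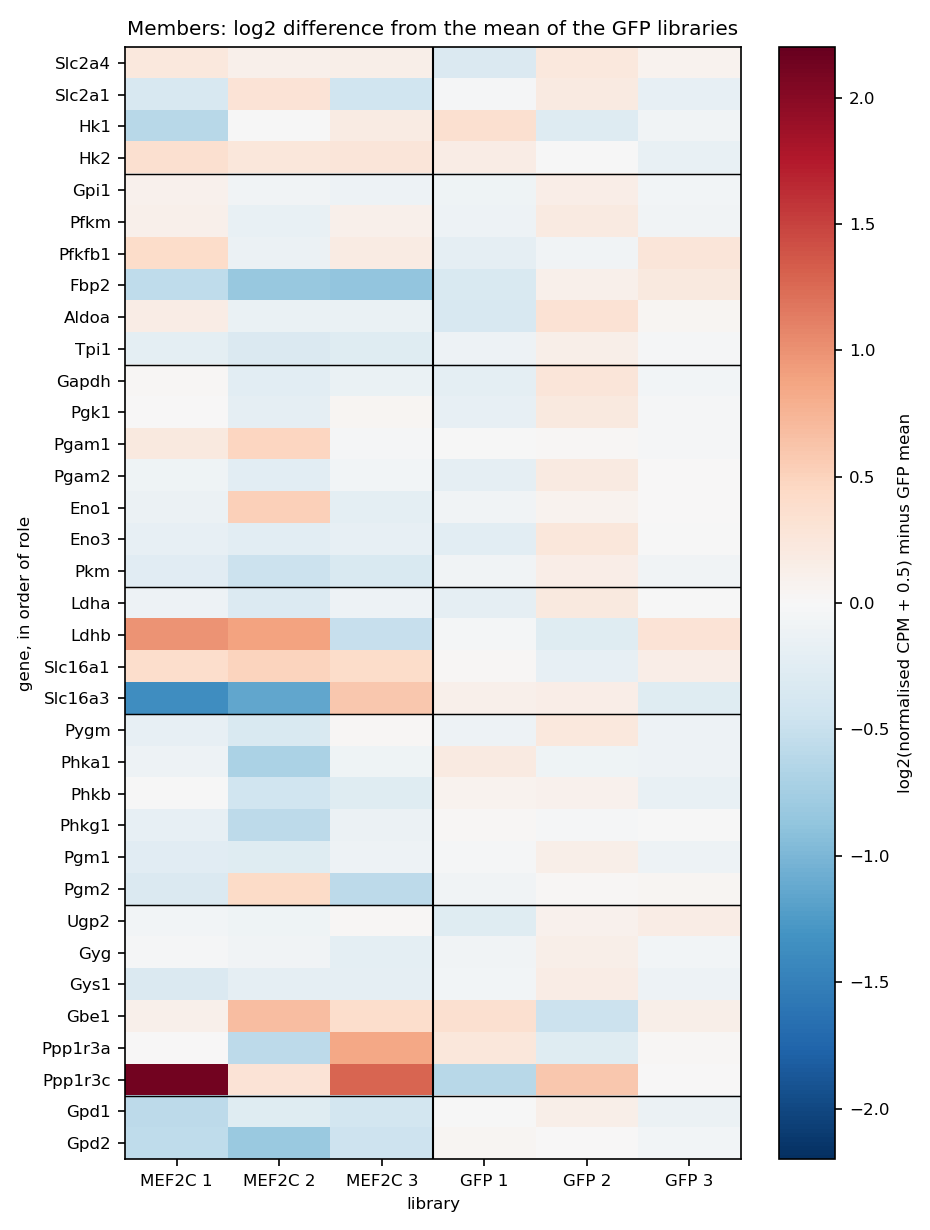
Log2 difference of each gene (rows, in order of role) from the mean of the 3 GFP libraries, on the scale log2(normalised CPM + 0.5), in the 6 libraries (columns), with red higher and blue lower. Fbp2, Gpd1 and Gpd2 are blue in all 3 MEF2C libraries, whereas Ldhb and Slc16a3 in MEF2C replicate 3 have the colour opposite to that in replicates 1 and 2.

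For glucose uptake, Hk2, the main muscle hexokinase (chromosome 6, 82725025 to 82774454, minus strand), was at 394, 370.1 and 374 normalised CPM in the MEF2C group, against 347, 309 and 277 in the GFP group. It is 1 of the 2 genes of the pathway that lay higher in every MEF2C library, with 0.29 ± 0.12 as its log2 fold change (edgeR adjusted p = 0.856). Slc2a4, the insulin-responsive transporter GLUT4, was at 301, 278 and 283 against 207, 301 and 273, with overlapping groups and a log2 fold change of 0.14 ± 0.14. Slc2a1 (the widespread transporter GLUT1) and Hk1 had between 17 and 46 counts per library and log2 fold changes of -0.13 ± 0.32 and -0.15 ± 0.28. Neither difference was detectable at this depth.

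Lactate handling divided the MEF2C libraries. Ldhb, the heart-type lactate dehydrogenase subunit that favours lactate oxidation (chromosome 6, 142490249 to 142507957, minus strand), was at 365, 338 and 129.7 normalised CPM in the MEF2C group, against 179, 153 and 226 in the GFP group. Slc16a3, the lactate exporter MCT4 of glycolytic fibres (chromosome 11, 120948480 to 120960868, plus strand), was at 40.7, 47.1 and 159 against 114, 116 and 87.5. MEF2C replicates 1 and 2 had the 2 highest Ldhb and the 2 lowest Slc16a3 levels of all libraries, and MEF2C replicate 3 had the lowest Ldhb and the highest Slc16a3. With all libraries the log2 fold changes were 0.58 ± 0.44 and -0.36 ± 0.63 (edgeR adjusted p = 0.982 and 0.993). Without MEF2C replicate 3 they were 0.92 and -1.27, and both passed over all genes (edgeR adjusted p = 0.0284 and 0.00780, 2 libraries against 3). That library was singled out by these same values, so the passing adds no support to the division. The same fit called 22 of all genes, against 7 with all libraries, and neither gene passed with any other library left out.

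The myosin genes that mark fibre types followed this division only in part. Myh7, the slow myosin heavy chain, had 74.4, 68.0 and 20.1 normalised CPM in the MEF2C group, against 7.11, 0.319 and 3.71 in the GFP group. Myh2, the fast oxidative myosin, had 850.4, 917 and 193, against 318, 168 and 557. MEF2C replicate 3 was the lowest MEF2C library for both, but for Myh7 it still lay above every GFP library. Myh1, a further fast myosin, had 2084, 2096 and 1049, against 2338, 1551 and 1845, with MEF2C replicate 3 the lowest library. Myh4, the fast glycolytic myosin, had 13568, 10057 and 14776, against 17262, 16326 and 13594, which set MEF2C replicate 2 apart and not replicate 3. Within the GFP group Myh2 was highest in replicate 3 and lowest in replicate 2, as Ldhb was, and Slc16a3 ran the reverse. Myh1, Myh4 and Myh7 were highest in GFP replicate 1. Whether differences in fibre composition between the samples account for the lactate genes was not tested, and in bulk tissue fewer fibres of a type and less RNA per fibre cannot be told apart. Ldha, the muscle-type subunit, did not divide the libraries in this way: it stood at 3909.8, 3424 and 3901 against 3659, 4864 and 4194. Slc16a1, the transporter MCT1, which takes up lactate, had 68, 76 and 74 counts in the MEF2C libraries against 46, 37 and 56, and its groups did not overlap. Its log2 fold change was 0.43 ± 0.20 (edgeR adjusted p = 0.859), with MEF2C replicate 3 as high as the other two.

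**Figure D4:**
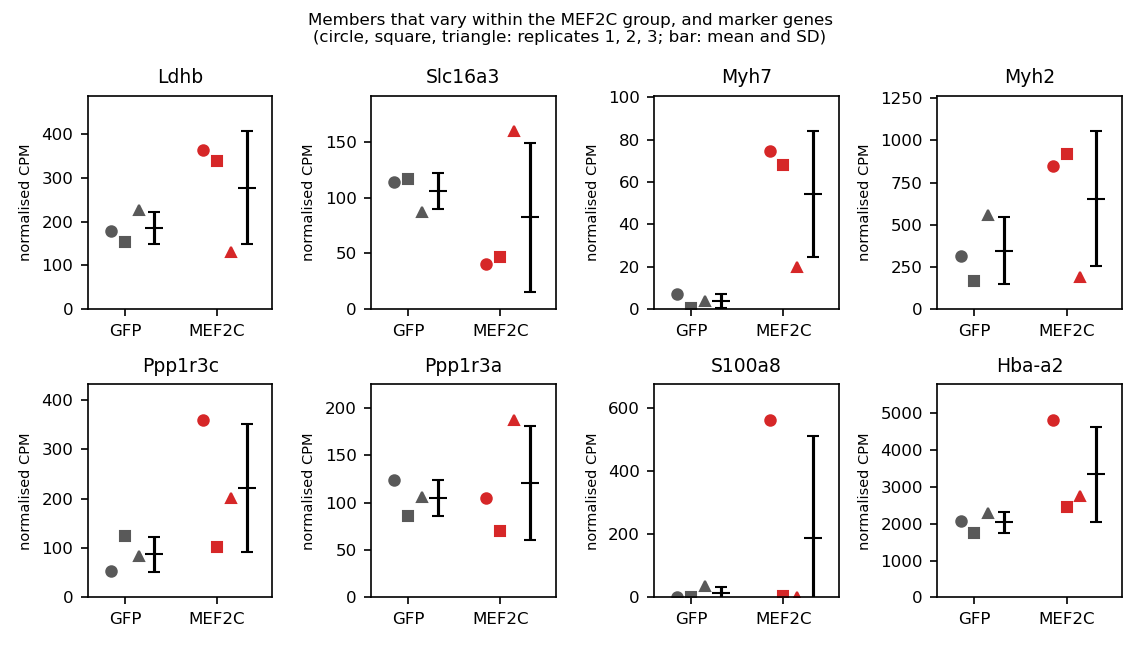
Normalised CPM (y axes, from 0) of 4 genes that vary within the MEF2C group and of 4 marker genes, with 1 symbol per replicate and the mean with SD beside each group. MEF2C replicate 3 (triangle) departs from replicates 1 and 2 in Ldhb, Slc16a3, Myh7 and Myh2, and MEF2C replicate 1 (circle) is the highest library for Ppp1r3c, S100a8 and Hba-a2.

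In ratios within each library the scaling cancels apart from the 0.5 added to each value. Those with Slc16a3 or Ldhb hold the same values that set the division, so they add no support to it. The log2 ratio of Slc16a3 to Slc16a1 was 1.18, 1.29 and 3.12 in the MEF2C group, against 3.02, 3.25 and 2.52 in the GFP group. That of Ldha to Ldhb was 3.42, 3.34 and 4.90 against 4.35, 4.98 and 4.21. In all, 15 ratios of a muscle gene to a related gene were compared, and 0 of 15 had groups that did not overlap. The exact two-sided permutation p was 0.2 or more for each, where 3 libraries against 3 cannot go below 0.1, and the smallest value adjusted over the 15 was 0.5625. Pgam2 to Pgam1 averaged 9.78 ± 0.34 against 10.12 ± 0.18 and Pygm to Pygb (the brain glycogen phosphorylase) 6.05 ± 0.38 against 6.48 ± 0.24 (SD, n = 3 per group). With 1 library left out, which leaves fewer values to overlap, 7 ratios had groups that did not overlap without MEF2C replicate 3, and 0 to 3 did without any other library.

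Genes of glycogen breakdown lay a little below 0. The 6 genes had log2 fold changes from -0.28 to -0.10, and Pgm2 turned to 0.03 with library totals alone. By edgeR 0 of 6 were called, beside 0.0758% of all genes tested. At an unadjusted p under 0.05 there were 0 of 6, beside 5.71%. Phkg1, the catalytic subunit of muscle phosphorylase kinase (chromosome 5, 129863421 to 129898549, minus strand), was at 256, 193 and 265 normalised CPM in the MEF2C group, against 296, 285 and 288 in the GFP group. On normalised CPM its groups did not overlap, but with library totals alone they overlapped. The log2 fold change was -0.28 ± 0.14 (edgeR adjusted p = 0.899), and -0.15 with library totals alone. Phkg1 overlaps Chchd2 on the same strand in GENCODE vM21, and Chchd2 held 17023 counts against 5836 over the 6 libraries, so that reads could be split between them. The other kinase subunits, Phka1 and Phkb, were at -0.28 ± 0.17 and -0.24 ± 0.15 with overlapping groups, MEF2C replicate 2 being the lowest library for each. Pygm, the muscle glycogen phosphorylase, was at 913, 821 and 1054 against 954, 1217 and 952. Pgm1, the phosphoglucomutase that joins glycogen to glycolysis, was at 697 ± 43.1 against 806 ± 70.1 (SD, n = 3 per group), and its groups overlapped. Pgm2 had between 15 and 31 counts per library.

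In glycogen synthesis the enzymes and their phosphatase regulators varied in different ways. Gys1, muscle glycogen synthase (chromosome 7, 45434844 to 45456619, plus strand), was at 132, 143 and 144 normalised CPM in the MEF2C group, against 159, 185 and 153 in the GFP group. On normalised CPM its groups did not overlap, but with library totals alone they overlapped. Its log2 fold change was -0.24 ± 0.13 (edgeR adjusted p = 0.928), and -0.11 with library totals alone. Gys1 also overlaps Ruvbl2 on the opposite strand, whose 402 counts compare with 3370 for Gys1. Ugp2, which makes the glucose donor UDP-glucose, and Gyg, the glycogenin primer, were at -0.05 ± 0.13 and -0.10 ± 0.14, and turned to 0.08 and 0.03 with library totals alone. Gbe1, the branching enzyme, had 114, 175 and 147 counts against 117, 61 and 112, with 0.37 ± 0.21 as its log2 fold change (edgeR adjusted p = 0.928).

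Ppp1r3c, which targets protein phosphatase to glycogen, had the largest fold change of the 35 and the widest spread. It was at 360.1, 102 and 202 normalised CPM in the MEF2C group, against 54.2, 125 and 83.2 in the GFP group. MEF2C replicate 2 lay under GFP replicate 2, and the highest library held 6.64 times the level of the lowest. The log2 fold change was 1.34 ± 0.60 (edgeR adjusted p = 0.928) and ranged from 0.79 to 1.68 with any library left out. MEF2C replicate 1, the highest, also held 1200.4 normalised CPM of the 7 neutrophil markers, against 74.5 in GFP replicate 3 and 2.23 to 4.23 in the other 4 libraries, and 8631 of the 5 red blood cell markers, against 3080.5 to 4854. Without that library the change was 0.79, and the part of these cells in the Ppp1r3c level was not tested.

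Ppp1r3a, the muscle glycogen-targeting subunit whose MEF2 match is shown above, was at 105, 69.7 and 187 against 123, 85.8 and 106. MEF2C replicate 3 was the highest and replicate 2 the lowest of the 6 libraries. Its log2 fold change was 0.20 ± 0.39 and turned to -0.27 without MEF2C replicate 3. The remaining gene with a MEF2 match, Pfkfb1, was at 26.9, 18.4 and 22.7 against 17.5, 19.1 and 24.4, with a log2 fold change of 0.15 ± 0.21. Of the 3 genes with the match, 0 passed by edgeR, where 0.0758% of all genes tested did, and their fold changes lay on both sides of 0. So few genes cannot show whether the match bears on the level.

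**Figure D5:**
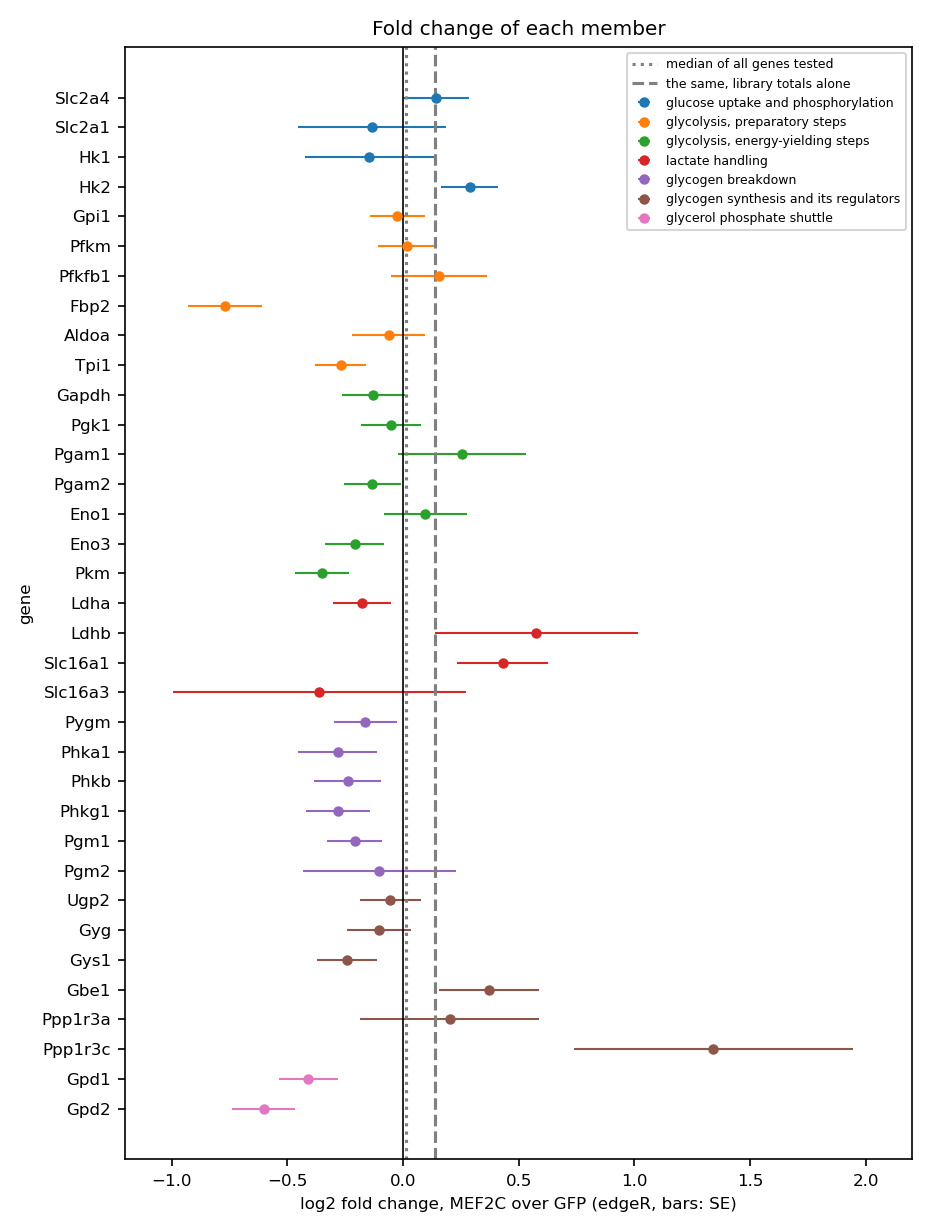
Log2 fold change of each of the 35 genes (edgeR, MEF2C over GFP) with its SE, coloured by role. The dotted and dashed lines give the median of all genes tested under TMM (0.01) and with library totals alone (0.14); Fbp2, Gpd2 and Gpd1 lie farthest to the left and Ppp1r3c to the right.

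Neighbouring parts of glucose metabolism were read from 7 further lists of 96 genes, of which 71 were tested and 0 were called by edgeR (6 of 71 at an unadjusted p under 0.05, beside 5.71% of all genes tested, and 1, Txnip, by DESeq2, beside 0.238%). The 2 genes with the smallest p of each list are named. Among glucose transport genes, Txnip, an inhibitor of glucose uptake, was at 144, 73.7 and 170.4 normalised CPM in the MEF2C group, against 58.1, 62.9 and 55.7 in the GFP group. Its groups did not overlap, with 1.14 ± 0.29 as its log2 fold change (edgeR adjusted p = 0.659, DESeq2 adjusted p = 0.00388). With a library left out the edgeR adjusted p ran from 0.00353 to 0.9998. The lowest came without MEF2C replicate 2, which held the lowest MEF2C value. Tbc1d4, which restrains GLUT4 vesicles, had 25 to 29 counts in the MEF2C libraries and 28 to 36 in the GFP libraries. On normalised CPM its groups did not overlap, with -0.44 ± 0.26 as its log2 fold change (edgeR adjusted p = 0.928).

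Among other glycolytic genes, Bsg, the membrane chaperone of the lactate transporters, had 443, 459.7 and 439 normalised CPM in the MEF2C group, against 503, 574 and 536 in the GFP group. Its log2 fold change was -0.27 ± 0.11 (edgeR adjusted p = 0.856). Pfkfb4, a further enzyme that makes and breaks down the activator of phosphofructokinase, was at -0.53 ± 0.22 (edgeR adjusted p = 0.841). On normalised CPM the groups of both genes did not overlap, but those of Pfkfb4 overlapped with library totals alone.

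Among other glycogen genes, Pygl, the liver glycogen phosphorylase, had 44, 72 and 44 counts in the MEF2C libraries and 15, 27 and 19 in the GFP libraries, or 1.15 ± 0.31 on the log2 scale (edgeR adjusted p = 0.440). Gaa, the lysosomal enzyme that degrades glycogen, was at 79.0 ± 4.48 against 101 ± 6.32 normalised CPM, or -0.35 ± 0.13 (edgeR adjusted p = 0.808). Neither pair of groups overlapped.

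Mitochondrial entry of pyruvate and the malate-aspartate shuttle, the other route for cytosolic NADH, had overlapping groups in every tested gene. Over all genes tested, 11.1% had groups that did not overlap. Their 12 and 6 tested genes had median log2 fold changes of 0.06 and 0.04, where the 2 glycerol phosphate shuttle genes had -0.51. The named genes were Pdk1 (0.61 ± 0.36) and Dlat (0.20 ± 0.15) for pyruvate, and Got2 (0.21 ± 0.14) and Slc25a12 (-0.11 ± 0.13) for the malate-aspartate shuttle. In the pentose phosphate pathway 6 of 6 tested genes were above 0, as were 4814 of all 9229 genes tested, and all 6 had overlapping groups and an unadjusted p over 0.05. Pgd was at 0.52 ± 0.26 and Tkt at 0.82 ± 0.50, the latter highest in MEF2C replicate 2 (146 normalised CPM, against 42.7 to 57.4 in the others). That library had the highest sum of adipocyte markers, and the part of adipocytes in the Tkt value was not tested. Among regulators of muscle glucose genes, Nr4a1 was at -0.38 ± 0.16 and Myod1 at -0.75 ± 0.35 (edgeR adjusted p = 0.841 and 0.875).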

How the data were processed

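Per the labels' protocols, RNA from frozen tissue was made into Oxford Nanopore PCR-cDNA libraries, in which template switching enriches full-length cDNA. The authors deposited counts per gene, in columns headed Count, which were taken to be raw and used as they stood. They also deposited CPM, and the totals behind these were inferred from counts and CPM: counts in genes made up 95.6% to 96.4% of those totals. The tools minimap2 and DESeq2 1.6.3 and the build GRCm38 are named in the submitters' processing notes, which assign them no role. How reads were counted, with which annotation, strand setting and viral reference, is not given in the sources used here. Of the rows, 30 named no gene, held 0 counts and were left out.

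The gene test was edgeR's quasi-likelihood test (version 4.0.16, R 4.3.3, robust dispersion). It followed TMM and filterByExpr, with Benjamini-Hochberg adjustment over all 9229 genes tested and a threshold of 0.05. SEs came from the F statistic. Alternatives were DESeq2 1.42.0 (size factors, and its Wald test after the same filter), limma-voom (limma 3.58.1), library totals, no filter, a strict filter, non-robust dispersion, a replicate block and leaving out each library. Within each group, libraries differed by more than sampling noise (chi-square per degree of freedom 5.65 to 11.7). Gene positions are from GENCODE vM21 (GRCm38) and promoters from RefSeq (GRCm38.p6). The members and lists were chosen with earlier results of these data known. Members were described in every library where groups did not overlap or an unadjusted p was under 0.05, with at least 1 for each role. Other lists name up to 4 called genes, or the 2 with the smallest p.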

Additional observations from a re-analysis of the deposited data

How the results depend on the processing

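Over all genes 7 were called, and 35 with no low-count filter, 3 with the strict filter, 22 by the DESeq2 Wald test, 3 by limma-voom, 0 with non-robust dispersion (557 at an unadjusted p under 0.05), 2 with the replicate block and 0 to 22 with a library left out (0 without GFP replicate 3, where 386 had an unadjusted p under 0.05, and 22 without MEF2C replicate 3). Of the 35 genes 0 were called, but 2 with no filter (Fbp2 and Gpd2), 1 by DESeq2 (Fbp2) and 0 to 2 with a library left out (Ldhb and Slc16a3 without MEF2C replicate 3). The labels do not say whether the replicate numbers pair the samples. Correlations of deviations from the group means were -0.29, 0.07 and -0.38 for numbers 1, 2 and 3. For unlike numbers they ran from -0.20 to 0.45, the highest for MEF2C replicate 3 with GFP replicate 1. Such values cannot settle whether samples were paired. The replicate block called 0 of the 35. The median log2 fold change of the 35 was 0.0067 with library totals alone and -0.19 to -0.035 with a library left out. Of the 15 ratios, 5 had the same sign at all 3 replicate numbers under the replicate block, where the exact sign-flip test cannot go below p = 0.25, and 0 to 7 had groups that did not overlap with a library left out. Of 686 gene values under the alternatives, 650 kept direction and side of the threshold, 28 turned and 8 newly passed. Library totals alone raise all genes together (median 0.01 to 0.14, with 1882 of 9229 genes turning sign), so a turn under them says nothing particular of a gene. It was seen for Gpi1 (0.10), Aldoa (0.073), Gapdh (0.0067), Pgk1 (0.082), Pgam2 (0.0028), Pgm2 (0.025), Ugp2 (0.079), Gyg (0.026) and Slc25a12 (0.018). With a library left out the sign turned for some genes, with ranges of -0.013 to 0.26 for Slc2a4, -0.44 to 0.015 for Slc2a1, -0.33 to 0.054 for Hk1, -0.10 to 0.053 for Gpi1, -0.055 to 0.12 for Pfkm, -0.24 to 0.10 for Aldoa, -0.25 to 0.019 for Gapdh, -0.15 to 0.057 for Pgk1, -0.18 to 0.23 for Eno1, -0.49 to 0.11 for Pgm2, -0.19 to 0.021 for Ugp2 and -0.27 to 0.47 for Ppp1r3a. The causes were not tested. Counts under 50 per library limit Slc2a1, Hk1, Pgam1 and Pgm2.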
